A study of Mus musculus with 2 samples.

Results

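The metabotropic glutamate receptors were followed as a family of 6 genes, Grm2, Grm3, Grm4, Grm5, Grm7 and Grm8, chosen by name. A probe was assigned to a member when the RefSeq accession printed for it on the array led to that gene's symbol. By this rule 4 of the 6 genes had a probe, of 16533 genes with a symbol on the array: Grm3, Grm4 and Grm8 had 1 probe each and Grm7 had 3. No accession on the array led to Grm2 or Grm5, so these genes are not analysed here. Grm6, a further receptor of the family, had 1 probe and is given after the members.

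Metabotropic glutamate receptors are G protein-coupled receptors with a large extracellular domain that binds glutamate, and they tune synapses more slowly than the ion channel receptors do. Group I (Grm5 among the genes here) signals through Gq and phospholipase C, mostly behind the synapse. Group II (Grm2 and Grm3) and group III (Grm4, Grm6, Grm7 and Grm8) act through Gi and Go proteins. Most of these receptors, though not Grm6, lower cyclic AMP and restrain transmitter release from axon terminals. In the hippocampus Grm7 and Grm8 are known as presynaptic receptors, and Grm3 is found in astrocytes as well as neurons. Grm6 is best known from ON bipolar cells of the retina.

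The tissue was the hippocampus of male C57BL/6J mice, 11 weeks old and weighing 26 to 28 g before the experiment. They were housed singly, and after 1 week of acclimatization they received the diets in powdered chow for 4 weeks. The ASX group received 0.5% by weight of a Haematococcus pluvialis powder containing 2% astaxanthin, a carotenoid pigment, and the control group received 0% with placebo powder; no allele or other agent was used in either group. Array 1 held ASX RNA in Cy5 against control RNA in Cy3, and array 2 the reverse. The titles of both arrays name 4 mice, and how their RNA was combined is not given in the sources used here. The 2 arrays were therefore treated as a dye swap of 1 pair of RNA samples and count as 1 replicate of the diet comparison (n = 1). No test of the diet was possible. Whether both arrays held the same RNA is not stated in these sources, so what the spread between them holds is not known. The study's title concerns neurogenesis in the adult hippocampus under the supplement, and the comparison here asks how the receptor genes differed between the 2 RNAs.

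At the array level, 75.8% to 78.2% of spots for mouse transcripts were well above background, depending on array and RNA, and no such spot was saturated. A probe was called measured when all 4 of its readings, each RNA on each array, were well above background, as 30079 of 41171 probes (73.1%) were. Of the 6 member probes 5 were measured, covering 3 genes, and the Grm4 probe was not. Hippocampal neuron markers were present in the tissue: 8 of 9 were measured, Prox1, Wfs1 and Neurod6 among them, while Dsp had no assigned probe. A gene without an assigned probe also counts as not measured in the lists below. Over 201 measured probes printed in 10 spots each, the median SD between spots was 0.05 on array 1 and 0.052 on array 2 (log2 ratio). This SD shows the precision of a single spot, and each receptor probe was printed in 1 spot. It was larger for dim probes, at 0.083 and 0.087 with a mean log2 signal below 8. The probes of Grm4 and Grm6 and the Grm7 probe A_52_P551544 lay there. From 10 to 12, where Grm3 lay, it was 0.033 and 0.039. Over all 23604 measured genes and transcripts, the log2(ASX / control) of the 2 arrays had a Pearson correlation of -0.029. Over all genes the ratios thus did not correlate between the arrays, which limits every direction given below for a single probe. A ratio that follows the dye has opposite signs on the 2 arrays and lowers this correlation. The part of the dye in it was not tested. Bulk tissue was measured, so fewer cells of a type and less RNA per cell cannot be told apart.

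With the scaling used in the text, the median of the mean log2(ASX / control) over the 3 measured member genes was 0.019. It was -0.15 with median centring and -0.36 with spike-in scaling. No member passed the size rule, which asks for 1.5-fold or more on array 1 and again on array 2, with the same RNA higher. With so few genes and 1 replicate, this does not show equal levels. One of the 3 Grm7 probes was higher in the ASX RNA on both arrays, by 1.25-fold in the mean, while the other 2 were near equal. Grm8 was lower in the ASX RNA on both arrays, at 0.87 of the control level in the mean. Grm3 and Grm4 had opposite signs on the arrays. Of the 3 measured member genes, 0 were higher and 0 were lower by the rule, as 0.0635% and 0.0212% of all 23604 measured genes and transcripts were. Of the 5 measured member probes 0 passed in either direction, against 0.0499% of all measured probes for higher and 0.0166% for lower.

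**Figure D1:**
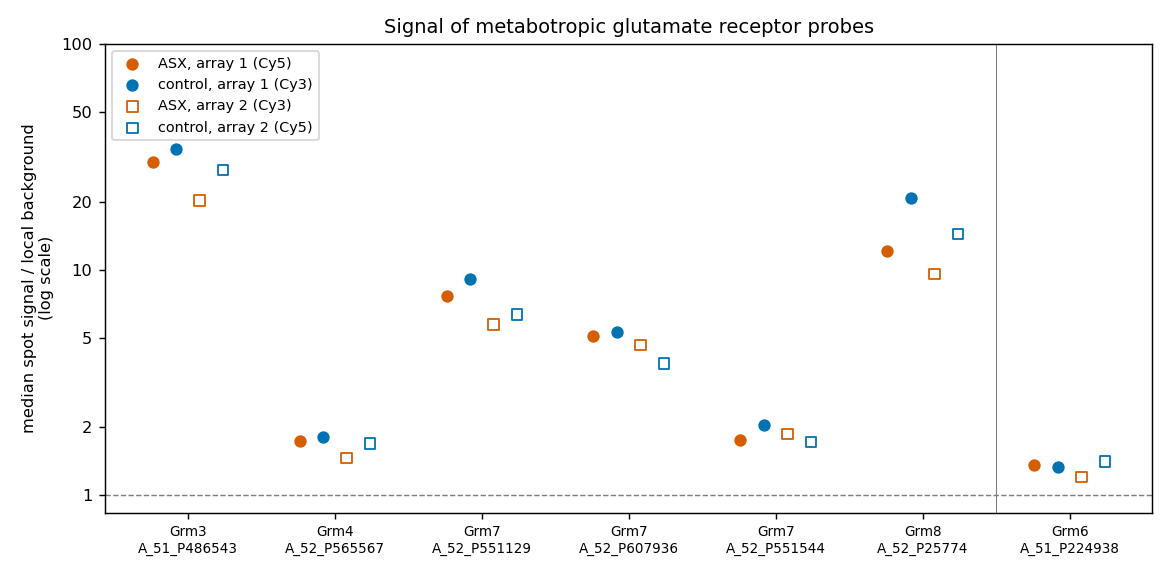
Median spot signal divided by the median local background (log axis) for each receptor probe, in the ASX RNA (orange) and control RNA (blue) on array 1 (circles) and array 2 (open squares). The dashed line marks a signal equal to the background; Grm6, right of the grey line, is not among the 6 genes. Grm3 lies between 20.2 and 34.1 times background, while Grm4 and the probe A_52_P551544 of Grm7 lie near 2 or lower.

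Among group II genes only Grm3 was measured. Its probe (A_51_P486543, accession NM_181850) had a signal of 20.2 to 34.1 times its background over the 4 readings. On array 1 the deposited median signal was 2011 for ASX over a background of 67 and 2147 for control over 63. On array 2 it was 1274 for ASX over 63 and 1994.5 for control over 72. After background correction and dye normalization the log2(ASX / control) was 0.22 on array 1 and -0.17 on array 2. After these steps the RNA labelled with Cy5 was thus the higher one on both arrays, whichever diet it came from. Before them, the median signal was higher for the control RNA on both arrays. The mean was 0.024 with an SD of 0.27 between the arrays, so no diet difference larger than the spread between the arrays was seen. An SD at least as large was found for 8.79% of measured probes. Of the other member probes that were measured, none had an SD above 0.091.

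The astrocyte markers were read beside Grm3. All 8 were measured; 1 was above 0 on both arrays, 0 were below and 7 had opposite signs, as 59.3% of genes with a symbol had. Their median log2 ratio was 0.11 on array 1 and -0.07 on array 2, and their summed normalized level had a log2(ASX / control) of 0.11 on array 1 and -0.14 on array 2. Slc1a2, which encodes the glutamate transporter of astrocytes, had 0.26 and 0.19, and S100b had -0.31 and 0.07. Another Slc1a2 probe had 0.28 and -0.04. Precursors of oligodendrocytes, which also carry Grm3, had a median of -0.25 on array 1 and -0.14 on array 2 over 4 measured markers; 2 of them were below 0 on both arrays and 0 above. The part of these cell types in the Grm3 values was not tested.

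**Figure D2:**
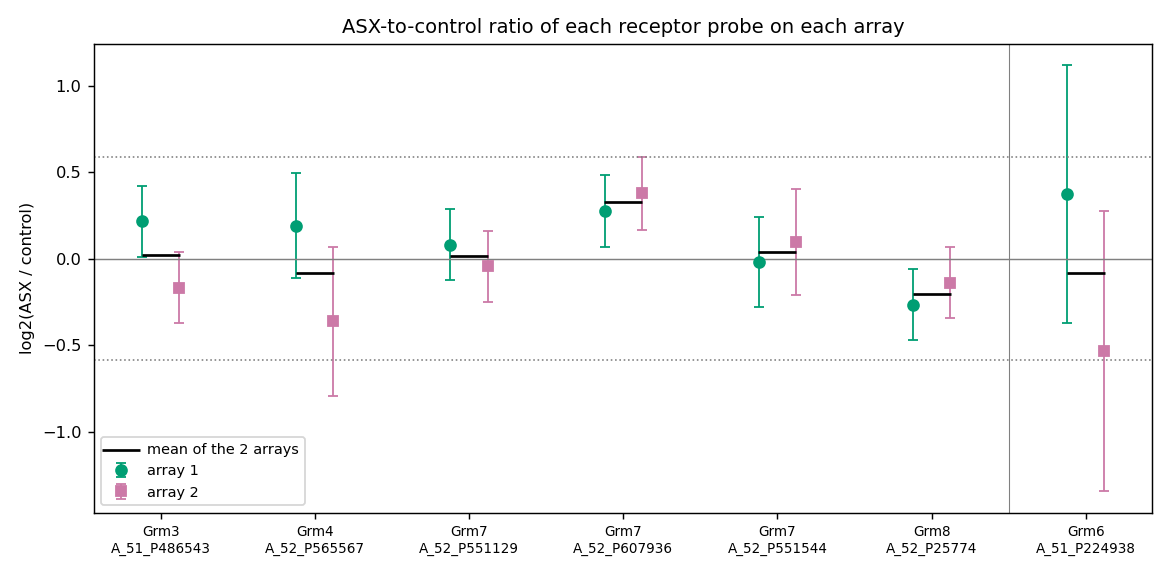
log2(ASX / control) of each receptor probe on array 1 (green circles) and array 2 (pink squares), with the mean of the 2 arrays as a black bar. Error bars show the scanner software's own error for that spot's log ratio in both directions, and dotted lines mark 1.5-fold. The Grm7 probe A_52_P607936 lies above 0 and Grm8 below 0 on both arrays, while Grm3, Grm4 and Grm6 change sign between the arrays.

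Grm7, the group III receptor of presynaptic active zones, was read by 3 probes that share the accession NM_177328. The brightest, A_52_P551129, had a signal of 531.5 for ASX and 594.5 for control on array 1, and 356.5 and 471.0 on array 2, over backgrounds of 62.5 to 74.5. Its log2(ASX / control) was 0.08 on array 1 and -0.045 on array 2, with a mean of 0.019 and an SD of 0.089. This probe sets the value of Grm7 where 1 probe per gene is used, and its arrays disagreed in sign.

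The probe A_52_P607936 gave another picture. On array 1 its signal was 371 for ASX over a background of 73 and 355 for control over 67. On array 2 it was 285 for ASX over 61.5 and 275 for control over 71.5. The log2(ASX / control) was 0.28 on array 1 and 0.38 on array 2, so the ASX RNA was higher under either dye. The mean was 0.33, or 1.25-fold, with an SD of 0.073 between the arrays. A mean at least this far from 0 was found for 1.76% of measured probes. Per the authors' deposited log ratios, which the scanner software scaled in its own way, the values were 0.36 on array 1 and 0.46 on array 2 on the log2 scale, with errors of 0.21 on each. It was the only one of the 5 measured member probes at least 1.2-fold higher on each array, as 1.28% of all measured probes were, and 0 were as far lower, as 0.316% were.

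The third Grm7 probe, A_52_P551544, was dim. Its signal lay between 112 and 129.5 in all 4 readings, over backgrounds of 62 to 68. The log2(ASX / control) was -0.017 on array 1 and 0.1 on array 2, with a mean of 0.04 and an SD of 0.081. The means of the 3 Grm7 probes thus spanned 0.31 on the log2 scale, more than the SD between arrays of any of them. Among 972 genes with at least 3 measured probes, the median span was 0.11 and 3.19% of genes had a span at least as wide as that of Grm7. All probes of a gene had means of the same sign in 43.7% of these genes, Grm7 among them. Which parts of the Grm7 transcript the probes read was not analysed here, and probe-to-probe differences within Grm7 were not tested.

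Grm8, a group III receptor of axon terminals with high affinity for glutamate, was read by the probe A_52_P25774 (NM_008174). On array 1 its signal was 892 for ASX over a background of 74 and 1290 for control over 62. On array 2 it was 635 for ASX over 66.5 and 918.5 for control over 64. The log2(ASX / control) was -0.27 on array 1 and -0.14 on array 2. Under either dye the control RNA was the brighter one. The mean was -0.20, a ratio of 0.87, with an SD of 0.091 between the arrays. Per the authors' deposited log ratios the values were -0.28 on array 1 and -0.16 on array 2 on the log2 scale, with errors of 0.206 and 0.205. A mean at least this far from 0 was found for 7.11% of measured probes.

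Grm4, a further group III receptor, best known from cerebellar granule cells, was near the detection limit. Its probe (A_52_P565567, NM_001013385) had a signal of 117 for ASX over a background of 67.5 and 111 for control over 61.5 on array 1. On array 2 it had 92 for ASX over 63, which was not well above background, and 112 for control over 66. The log2(ASX / control) was 0.19 on array 1 and -0.36 on array 2, with an SD of 0.39. The Cy5 reading was the higher one on both arrays. No ratio is given for Grm4 as a gene, since only 3 of its 4 readings were well above background. Of 5 cerebellar markers 3 were measured, and the granule cell genes Gabra6 and Cbln3 were not.

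In all, 1 of the 3 measured member genes was below 0 on both arrays (Grm8), 0 were above and 2 had opposite signs. Among genes with a symbol, 26.4% were below 0 on both arrays, 14.3% above and 59.3% had opposite signs. At the level of probes, 1 of 5 was above 0 on both arrays, 1 was below and 3 had opposite signs, against 21.9%, 23.4% and 54.7% of all measured probes. These shares are near the background, and with so few members nothing particular to the family can be read from them. The median of the mean log2 ratio was 0.019 over the 3 member genes (0.08 on array 1 and -0.14 on array 2) and -0.019 over all genes with a symbol.

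**Figure D3:**
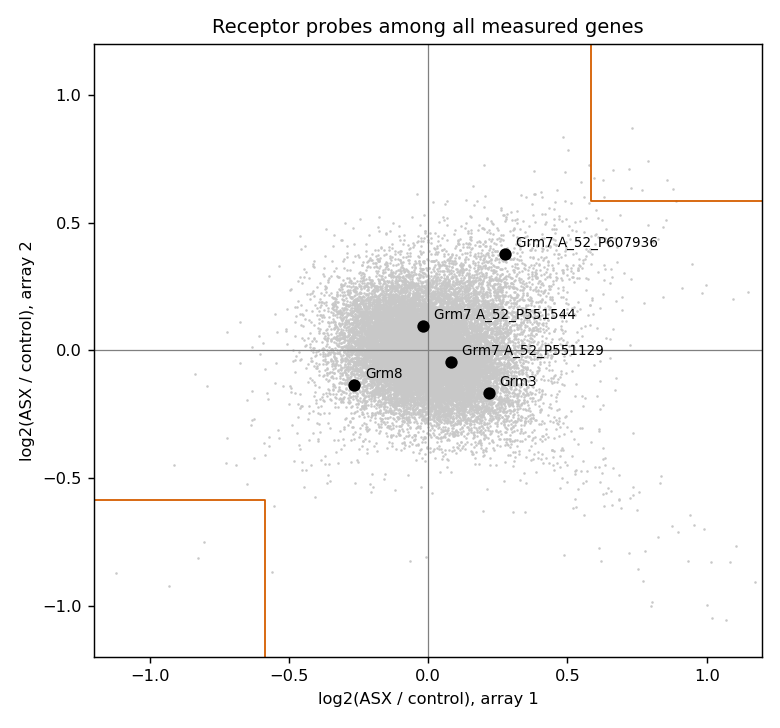
log2(ASX / control) on array 1 (x axis) against array 2 (y axis) for 23604 measured genes and transcripts (grey, the brightest measured probe of each) and for the measured receptor probes (black). Orange corners mark the size rule, and 11 genes lie outside the axes. The Grm7 probe A_52_P607936 is the receptor probe nearest to a corner, and none lies inside one.

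The Grm6 probe (A_51_P224938) had signals of 79.5 to 105, and only the Cy5 reading was well above background on each array. Its log2(ASX / control) was 0.37 and -0.53, and per the authors' deposited log ratios 2.86 on array 1 and -2.70 on array 2 on the log2 scale. Both arrays gave the higher Grm6 value to the RNA labelled with Cy5, so neither ratio describes the diet. The probes of Grm4 and Grm6, both under 2 times background, were those with the largest SD between arrays among the receptor probes given here.

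**Figure D4:**
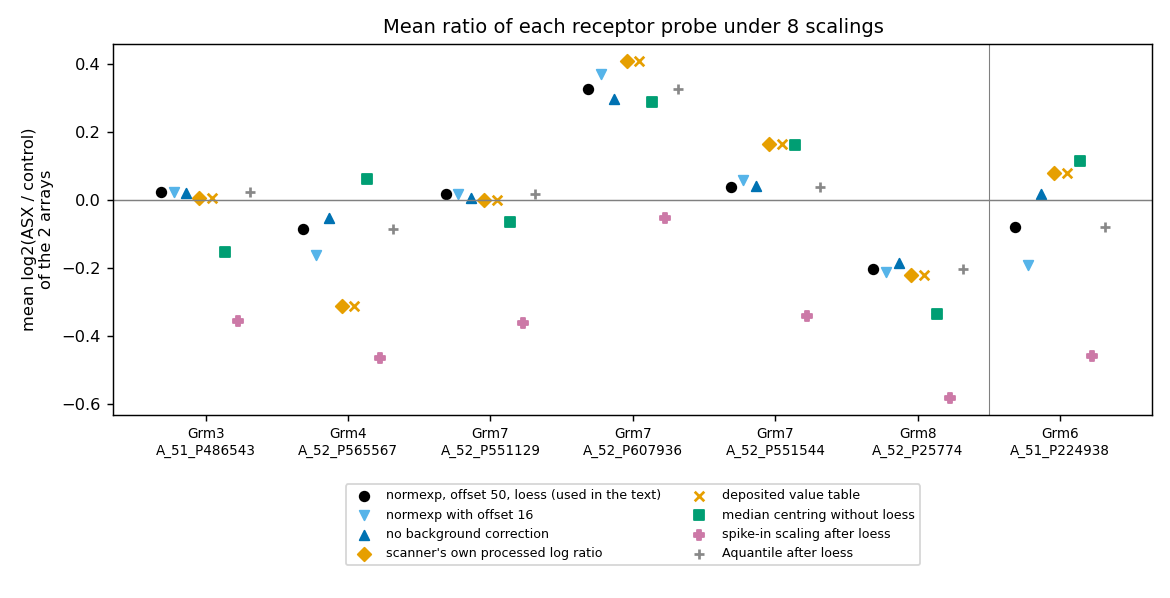
Mean log2(ASX / control) over the 2 arrays for each receptor probe under 8 ways of correcting background and scaling the arrays; the black circles are the values used in the text. 6 of the 8 give different ratios. Grm8 stays below 0 in each, and the Grm7 probe A_52_P607936 stays above 0 except with spike-in scaling, which lowers all probes by 0.38.

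Of the 8 scalings, 6 gave different ratios for these probes: Aquantile returned those used in the text, and the deposited value table held those of the scanner. The direction of Grm8 was below 0 under all 6, with means from -0.58 to -0.19. Spike-in scaling lowered every probe, so a probe already below 0 could not turn under it. Without it the lowest mean of Grm8 was -0.34. Spike-in scaling put 96.2% of all genes and transcripts below 0 on both arrays. Median centring put 48.1% there, against 23.0% with the scaling used in the text. The direction of the Grm7 probe A_52_P607936 was above 0 under 5 of the 6, from 0.29 to 0.41, and turned to -0.053 with scaling on spike-in RNAs, which puts the median of all genes at -0.38. The place of this probe relative to that median was fixed beforehand, since the scaling shifted all probes alike. The signs of Grm3, of Grm4 and of the Grm7 probe A_52_P551129 turned with the scaling: their means ran from -0.36 to 0.024, from -0.46 to 0.064 and from -0.36 to 0.019. A direction for these 3 probes is therefore not stated. The Grm7 probe A_52_P551544 had means of 0.04 to 0.17, and -0.34 with spike-in scaling.

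Genes that act with the receptors were read from lists drawn up by role. Of their 68 measured members outside the Grm family, 0 passed the size rule in either direction. Among genes with a symbol, 0.03% passed for higher and 0.03% for lower. For the counts of signs in each of these lists, the shares over genes with a symbol were 26.4% below 0 on both arrays, 14.3% above and 59.3% of opposite signs. Among the Gi and Go proteins, adenylyl cyclases and channels that group II and III receptors act on, 13 of 14 genes were measured; 4 were above 0 on both arrays, 2 below and 7 had opposite signs. Kcnj3, which encodes a subunit of the G protein-gated potassium channel, had 0.41 on array 1 and 0.44 on array 2. Its partner subunit gene Kcnj6 had 0.19 and 0.23. Kcnj3 was the only gene of the list at least 1.2-fold higher on each array, as 0.233% of genes with a symbol were, and 0 were as far lower, as 0.33% were. Cacna1a, the gene of the P/Q-type calcium channel pore, had 0.27 and 0.17, but another Cacna1a probe had -0.13 and -0.072. The median of the list was 0.025 (-0.06 on array 1 and 0.15 on array 2). With spike-in scaling Kcnj6 and Cacna1a had means of -0.17 and -0.16, while Kcnj3 had a mean of 0.04.

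For the Gq and phospholipase C route of group I receptors, all 14 genes were measured, with a median of 0.07 (0.011 on array 1 and 0.028 on array 2). In this list 4 genes were above 0 on both arrays, 2 below and 8 had opposite signs. Plcb1, the phospholipase C gene most tied to these receptors in the forebrain, had 0.67 on array 1 and -0.16 on array 2. Its other probes disagreed in sign, with means of 0.22 and -0.23. Dagla, the gene of an enzyme that makes the endocannabinoid released after group I activation, had -0.16 and -0.15. Trpc5, a cation channel gene, had a mean of 0.14 with an SD of 0.19. Both of these genes with a mean above 0 turned below 0 with spike-in scaling, to -0.12 for Plcb1 and -0.24 for Trpc5, and Trpc5 had -0.0004 with median centring.

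Scaffold and binding partners of the receptor tails had a median of -0.025 over 10 measured of 14 genes; 1 was above 0 on both arrays and 3 below. Ncdn, the gene of neurochondrin, had 0.24 and 0.02 with another probe at 0.30 and -0.083, Dlgap1, a postsynaptic scaffold gene, -0.06 and -0.11, and Pick1, which binds the tail of the Grm7 product, 0.05 and -0.20. The mean of Ncdn was below 0 with median centring and with spike-in scaling. Kinases, arrestins and RGS proteins, which end receptor signalling, had a median of -0.029 over 11 measured of 12 genes, with 0 above 0 on both arrays and 4 below. Rgs4, a regulator of Gq and Gi signalling, had -0.48 and -0.043, but another Rgs4 probe had -0.18 and 0.03. Grk5 had -0.39 and -0.1 with a like second probe at -0.29 and -0.15. Grk4 had 0.26 and -0.0035, and another Grk4 probe had -0.16 and 0.14; the mean of the first turned to -0.25 with spike-in scaling.

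Genes of receptor-dependent long-term depression and local translation had a median of -0.0042 over 13 measured of 13; 2 were above 0 on both arrays and 2 below. Map1b, whose mRNA is translated after group I activation, had 0.40 and 0.23, and Arc, an activity-induced gene needed for this depression, had -0.13 and -0.33. Eef2, the elongation factor gene, had 0.13 and 0.02, and its other probes had means of 0.044 and -0.033. With spike-in scaling the means of Map1b and Eef2 were -0.06 and -0.31. The other class C receptors had a median of -0.0071 over 7 measured of 11, with 2 above 0 on both arrays and 2 below. Gprc5c had -0.12 and -0.08, Gprc5b 0.02 and 0.17 and Gprc5a 0.19 and -0.019 with another probe at -0.04 and -0.097; Gprc5b and Gprc5a turned below 0 with median centring and spike-in scaling.

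**Figure D5:**
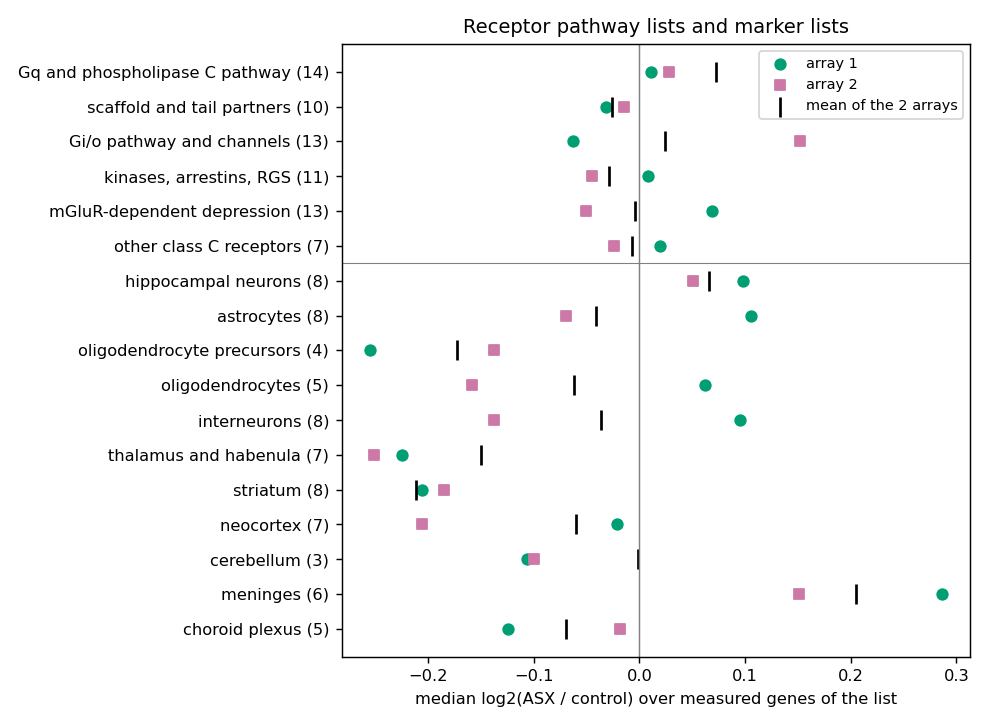
Median log2(ASX / control) over the measured genes of each list on array 1 (green circles) and array 2 (pink squares), with the median of the genes' means as a black bar and the number of measured genes in brackets. Pathway lists stand above the grey line and marker lists below it; the pathway medians lie within 0.16 of 0, and 6 marker lists (striatum, thalamus and habenula, precursors, neocortex, choroid plexus and cerebellum) lie below 0 on both arrays.

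Several marker lists of cell types and neighbouring regions had medians away from 0. Grm8 lay below 0 and the Grm7 probe A_52_P607936 above 0, so a list on either side shares a direction with a receptor probe by construction. The counts of signs here and in the next paragraph stand beside 26.4% of genes with a symbol below 0 on both arrays and 14.3% above. Striatal markers had a median of -0.21 with 7 of 8 measured genes below 0 on both arrays and 0 above, and their summed normalized level on array 1 was 27712 in ASX and 33054 in control, and on array 2 18329 and 24211. Penk, the enkephalin precursor gene, had -0.41 and -0.58, and another Penk probe -0.45 and -0.48. Drd2, a dopamine receptor gene, had -0.21 and -0.52, but another Drd2 probe had -0.0038 and -0.11. Thalamic and habenular markers had a median of -0.15 over 7 measured of 9, 4 of them below 0 on both arrays; their summed level was 7885 against 9094 on array 1 and 5753 against 5949 on array 2, and Gpr151 and Nwd2 were not measured. Precursors of oligodendrocytes stood at 11509 against 13403 and 8296 against 9234, and Sox10 had no assigned probe. Meningeal markers were on the other side, with a median of 0.20 and 4 of 6 above 0 on both arrays, although their summed level was 31395 in ASX against 32295 in control on array 1 and 22684 against 20416 on array 2. The part of these lists in the values of Grm8 and Grm7 was not tested.

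The medians of the other marker lists lay between -0.07 and 0.07. Hippocampal neuron markers had a median of 0.07, with 3 of 8 above 0 on both arrays and 0 below, and Zbtb20 the farthest from 0 at a mean of 0.28. Choroid plexus markers had a median of -0.07 (-0.12 on array 1 and -0.018 on array 2), with 4 of 5 below 0 on both arrays and 1 above. Neocortical markers had a median of -0.06 (-0.021 on array 1 and -0.21 on array 2), with 3 of 7 below 0 on both arrays and 0 above. The median was -0.0016 for the 3 measured cerebellar genes (-0.11 on array 1 and -0.1 on array 2), of which 1 was below 0 on both arrays. It was -0.037 for interneurons, with 1 of 8 below, and -0.06 for oligodendrocytes, with 5 of 5 of opposite signs.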

How the data were processed

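The members, the gene lists and the rules were chosen with earlier results of these data known. Spots were quantified with Agilent Feature Extraction 11.0.1.1, per the submitters' processing notes and the file headers; the array design refers to an older mouse build, so no coordinates are given. The deposited intensity of a spot is the median of its pixels, with a median local background beside it. The deposited log10 ratio is processed Cy5 over processed Cy3, scaled by the scanner software, and the deposited value table repeats it (largest difference 5e-08); neither is turned for the dye swap.

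Intensities were corrected with limma 3.58.1 in R 4.3.3 (normexp, offset 50) and scaled within each array by loess with control spots at weight 0. Ratios were turned to log2(ASX / control). Left out were 1639 control spots and 3 outlier spots. Accessions were named through RefSeq (GRCm38.p6): 23372 of 41171 probes matched 1 symbol and 0 matched several. A gene's value is that of its brightest measured probe. From each pathway list the 3 genes with the largest absolute mean, and any past the size rule, were named, and from marker lists at most 2; other genes in the text were singled out after their values were seen. The steps were tested on simulated data. Alternatives covered offset, background, scaling, filter, probe summary, fold and single arrays. Values of 2 genes of the lists are not reported here, and they were left out of the lists.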

Additional observations from a re-analysis of the deposited data

How the results depend on the processing

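Both RNAs of a pair lay on the same array, so each ratio is itself a paired comparison. With 1 replicate no paired test was possible. No member was called higher or lower under any of the 14 alternatives. With the 1.2-fold rule this rests on the brightest Grm7 probe, since the probe A_52_P607936 was at least 1.2-fold higher on each array. Of the alternatives, Aquantile and the value table are no separate checks, since their ratios equal other ones here. The 2-fold rule is no check on the members either, since it asks more of the same ratios and could add no call. Over all genes, against 15 higher and 5 lower, an offset of 16 gave 28 higher. The scanner's processed ratios and the deposited value table each gave 71 higher and 12 lower. Median centring gave 12 lower, spike-in scaling 3 higher and 154 lower, the 1.2-fold rule 339 and 74, and the 2-fold rule 3 and 1. Single arrays gave 36 to 137 higher and 28 to 47 lower. Of the 3 measured members, 2 were below 0 on both arrays with median centring and 3 with spike-in scaling. The mean over a gene's probes put 1 (Grm7) above 0. Single arrays gave 0 to 2 members above 0 and 1 to 3 below. The median over members was -0.15 with median centring, -0.36 with spike-in scaling, and -0.14 to 0.082 on single arrays. The causes of these shifts were not tested; a single array or a lower fold asks less of each gene by construction. Dim probes limit what can be read: Grm4 and Grm6 lay below 2 times background.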
